A study of Mus musculus with 9 samples.

Results

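The genes described here, all but Mrps36, encode proteins of the mitochondrial ribosome. They were chosen by name, as every gene of the count table whose mouse symbol begins with Mrpl or Mrps followed by a digit. This gave 78 of 22255 genes, 49 named for the large subunit (Mrpl) and 29 for the small subunit (Mrps). RNA was sequenced from hippocampal synaptoneurosomes, a brain fraction enriched in pinched-off synaptic endings, of Fmr1 KO mice of the C57Bl/6J strain. The AM6545 group (n = 4, samples A, B, C and E) had received this antagonist of the cannabinoid receptor CB1, which enters the brain poorly, as a sub-chronic treatment. The vehicle group (n = 5, samples A to E) was of the same Fmr1 KO genotype and had received vehicle only. Dose, age and sex are not given in the sources used here, and no wild-type sample was analysed here.

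The mitochondrial ribosome, or mitoribosome, sits in the matrix and makes the few proteins that the mitochondrial genome encodes, all of them membrane subunits of the respiratory chain and ATP synthase. Its RNAs come from the mitochondrial genome, whereas all of its proteins are encoded in the nucleus, made on cytosolic ribosomes and imported. Many of these proteins descend from bacterial ribosomal proteins and others were added in mitochondria. Mitochondria lie in the synaptic endings as well as in the cell body, so a synaptoneurosome holds both the mitochondria and some of the messenger RNAs.

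Libraries held 17628922 to 27263393 counts. The 78 genes together took 0.29% to 0.333% of the counts in AM6545 samples and 0.307% to 0.377% in vehicle samples, and the counts of a single member in a sample ran from 140 to 2354. All 12 markers of excitatory synapses and hippocampal neurons were detected in every sample, at a summed 7948 to 9075 CPM (counts scaled to library size by edgeR's TMM factors) in AM6545 samples and 7291 to 9445 CPM in vehicle samples. Markers of astrocytes, oligodendrocytes and microglia were present in every sample as well. The 8 oligodendrocyte markers summed to 13270 to 18960 CPM in AM6545 samples and 10860 to 22640 CPM in vehicle samples. In every sample this was above the sum of the 12 synaptic and neuronal markers. The 8 astrocyte markers summed to 4682 to 4931 CPM in AM6545 samples and 3706 to 5671 CPM in vehicle samples. The 8 microglia markers summed to 869.8 to 1119 CPM and 638.2 to 1027 CPM. The 8 choroid plexus markers summed to 62.79 to 974.2 CPM in AM6545 samples and 49.51 to 4469 CPM in vehicle samples. Fmr1 itself was counted at 9.45 to 11.1 CPM in AM6545 samples and 10.3 to 13.3 CPM in vehicle samples. With no wild-type sample, these values do not check the knockout.

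Most mitoribosomal protein genes had slightly lower values after AM6545, and no single one passed the test. Of the 78 members, all of which passed the filter on low counts, 69 had a log2 fold change under 0 (88.5%), where 51.8% of the 14512 genes tested did. The median log2 fold change of the members was -0.13, within a range of -0.38 to 0.14, and that of all genes tested was -0.009. In edgeR's quasi-likelihood F-test, with p-values adjusted over all genes by Benjamini-Hochberg, 0 of 14512 genes (0.0%) had an adjusted p under 0.05. No gene came below an adjusted p of 0.653. Taken without adjustment, p was under 0.05 for 10 members with lower values and 0 with higher values. Of the 14512 genes tested, 607 (4.18%) had such a p with lower values and 440 with higher values.

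The large subunit joins amino acids into the new protein, and the small subunit holds the messenger RNA and reads its codons. Of the 49 Mrpl genes, 45 had lower values (91.8%), with a median log2 fold change of -0.14. Of the 29 Mrps genes, 24 had lower values (82.8%), with a median of -0.091. Unadjusted p was under 0.05 for 4 large-subunit and 6 small-subunit genes, all with lower values, beside 4.18% of all genes tested with lower values. By place in the ribosome the small-subunit count was 5, since Mrps36 lies outside it. With sample quality weights in limma-voom, the medians were -0.048 for the large and -0.037 for the small subunit, and without AM6545 E they were -0.11 and -0.05. With each sample's trend of counts with transcript length removed, they were -0.092 and -0.057. With the sample letter as a replicate block the small-subunit median was -0.059. Letter D is in the vehicle group only, so vehicle D had no AM6545 sample to be set against in that fit.

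Sample by sample, the mean log2 CPM of the large-subunit genes was 5.29, 5.22, 5.23 and 5.07 in AM6545 samples A, B, C and E. In vehicle samples A to E it was 5.45, 5.16, 5.45, 5.39 and 5.24. The groups overlapped: vehicle A, C and D stood above all other samples, vehicle B and E lay among the AM6545 samples, and AM6545 E was the lowest of all. The small-subunit genes gave the same picture, with 5.25, 5.19, 5.19 and 5.07 in the AM6545 samples and 5.36, 5.11, 5.41, 5.36 and 5.21 in the vehicle samples. The group means were 5.20 ± 0.094 (SD, n = 4) and 5.34 ± 0.131 (SD, n = 5) for the large subunit, and 5.18 ± 0.0755 and 5.29 ± 0.126 for the small subunit. In bulk RNA, fewer cells or endings of a type and less RNA in each cannot be told apart.

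**Figure D1:**
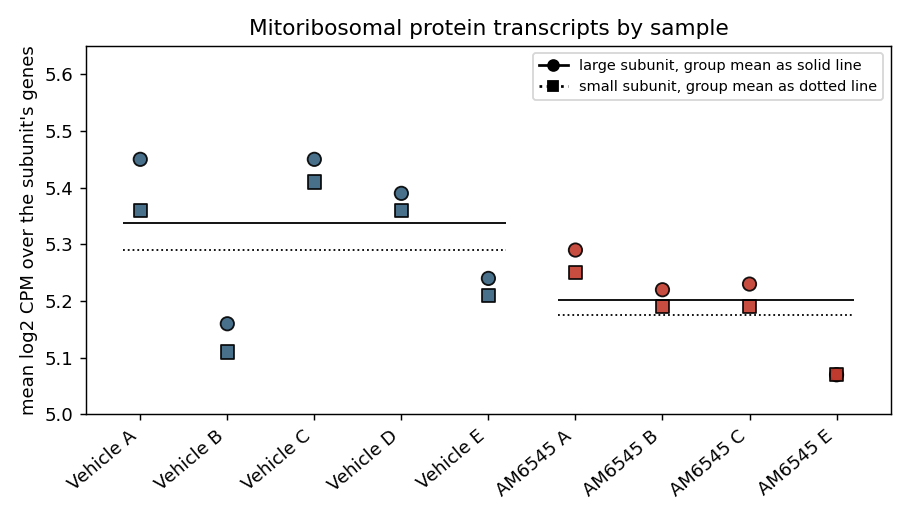
Mean log2 CPM of the 49 large-subunit and 29 small-subunit genes in each of the 9 samples. Both subunits were lowest in AM6545 E (5.07 and 5.07) and above all other samples in vehicle A, C and D, and vehicle B and E lay within the range of the AM6545 samples.

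Both subunits moved together across samples. The summed CPM of the large-subunit genes was 1.72 to 1.78 times that of the small-subunit genes in AM6545 samples and 1.74 to 1.78 times in vehicle samples, so the groups overlapped in this ratio. Library size ran opposite to the level at both ends: vehicle B, the deepest library (27263393 counts), and AM6545 E, the next deepest (25001682), had the lowest large-subunit levels. The 3 smallest libraries, vehicle A (17628922), AM6545 A (19295228) and vehicle C (19331235), had 3 of the 4 highest. The remaining high level, 5.39, was that of vehicle D, which went the other way: its library (24543134) was the deepest after AM6545 E. The part of library size in these levels was not tested. Markers of excitatory synapses and hippocampal neurons had higher values after AM6545 in 10 of 12 (median log2 fold change 0.17), and microglia markers in 6 of 8 (median 0.091). Lower values were found in 6 of 7 endothelial (median -0.21), 5 of 8 astrocyte (-0.036) and 4 of 8 oligodendrocyte markers (0.0). All 8 choroid plexus markers had lower values, with a median log2 fold change of -1.39. Of the 3 samples with the highest large-subunit levels, vehicle A and D had 4112 and 4469 CPM of the choroid plexus markers and vehicle C had 49.51 CPM. The part of any of these cell types in the members' values was not tested.

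Single samples accounted for many of the extremes. The highest value lay in a vehicle sample for 68 members and the lowest value in an AM6545 sample for 59. The vehicle group held 5 of the 9 samples, and the shares over all genes tested were not computed. These counts therefore describe the samples and are not a result about the members. Vehicle A held the highest value of 31 members and vehicle C that of 23, and AM6545 E held the lowest value of 44. Vehicle B, a control, held the lowest value of 13 members, more than AM6545 B with 11. A member's highest sample was 1.42 times its lowest at the median.

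**Figure D2:**
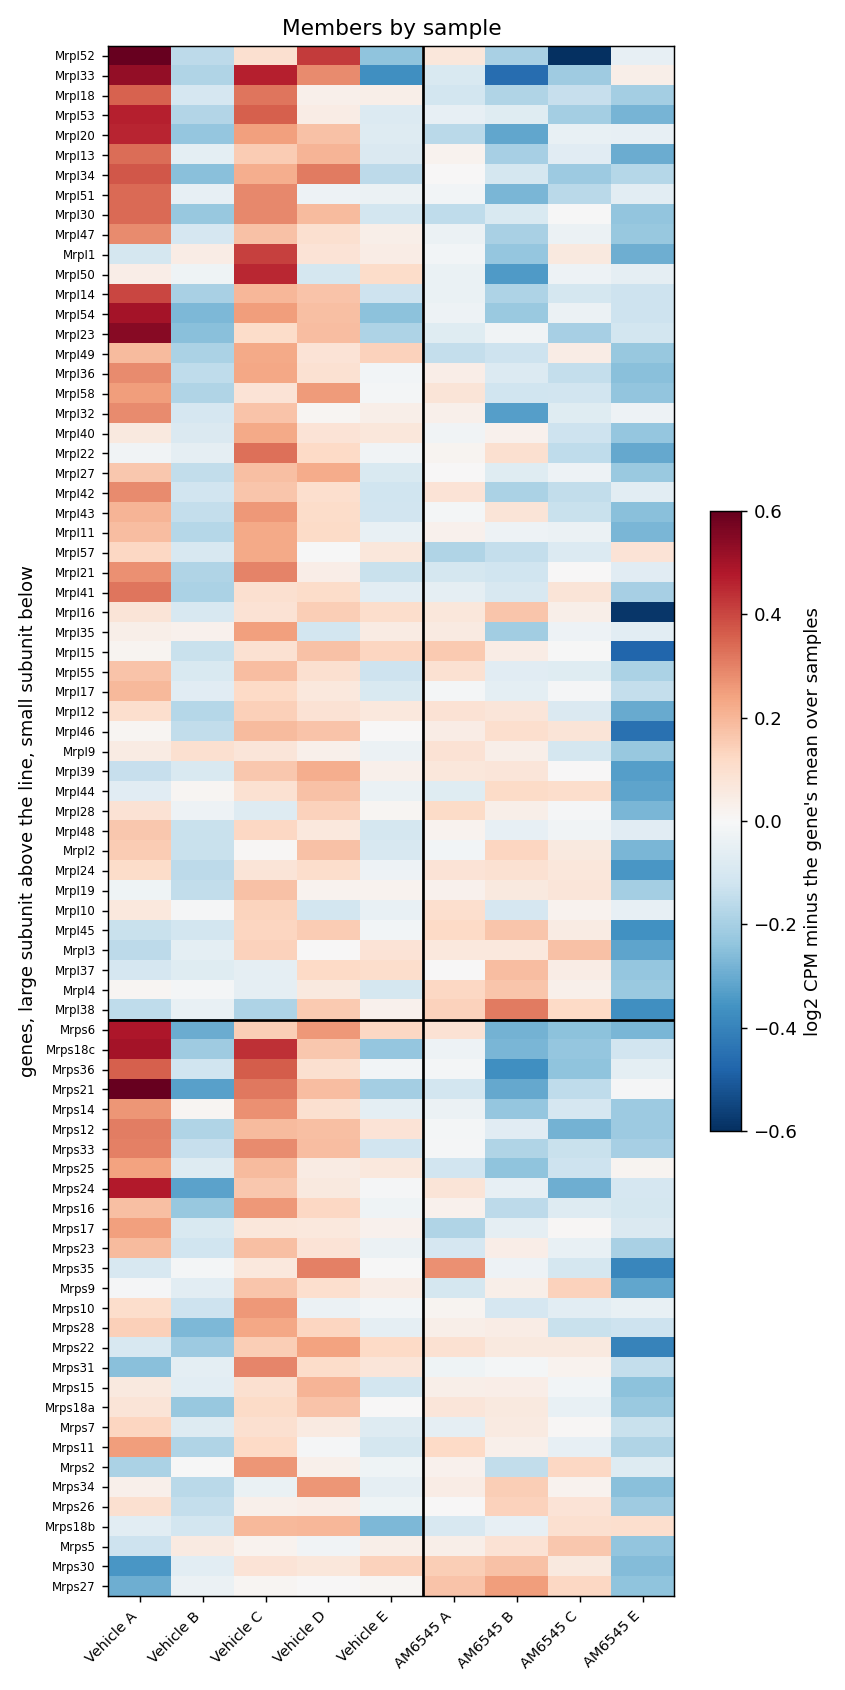
Each member's log2 CPM in each sample, relative to the member's mean over samples. The column of AM6545 E holds the lowest value of 44 of the 78 members, and the columns of vehicle A and C hold the highest value of 31 and 23.

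Among the large-subunit genes, Mrpl18 (ENSMUSG00000057388.10) had the smallest p. It is the counterpart of a bacterial protein that binds 5S ribosomal RNA. It had 53.3, 50.8, 52.3 and 50.02 CPM in AM6545 samples A, B, C and E, and 73.5, 53.7, 71.95, 58.8 and 59.0 CPM in vehicle samples A to E. Every AM6545 sample was below every vehicle sample, though AM6545 A and vehicle B nearly met. Its log2 fold change was -0.30 (SE 0.11, adjusted p = 0.653). It was the single member whose groups did not overlap with lower values after AM6545, beside 0.868% of all genes tested. Its exons overlap those of Tcp1, a cytosolic chaperonin gene on the other strand, and the strand setting of the counting is not given in the sources used here.

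Mrpl13, another gene with a bacterial counterpart, had 46.7, 39.99, 43.8 and 37.4 CPM in AM6545 samples and 58.0, 44.1, 51.0, 52.8 and 43.3 CPM in vehicle samples. Vehicle B and E lay within the AM6545 range, and the log2 fold change was -0.25 (adjusted p = 0.653). Mrpl51 and Mrpl53, both without a bacterial counterpart, had log2 fold changes of -0.24 and -0.29 (adjusted p = 0.653 for both). Mrpl53 shares exon sequence with Gm42688, so the division of reads between these genes is uncertain. The most negative fold change of all members belonged to Mrpl52, a gene chosen after its values were seen, at -0.38 (SE 0.20, adjusted p = 0.653), with 8.27 ± 1.65 CPM (SD, n = 4) against 10.8 ± 3.05 CPM (SD, n = 5).

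The large-subunit genes with higher values in the AM6545 group were 4. Mrpl38, which lacks a bacterial counterpart, had 62.5, 70.3, 61.6 and 43.9 CPM in AM6545 samples and 51.1, 54.97, 49.97, 63.2 and 57.8 CPM in vehicle samples. AM6545 E was the lowest of all samples here too, and the log2 fold change was 0.10 (SE 0.13, adjusted p = 0.818). The other three were close to 0: Mrpl4 at 0.05, Mrpl37 at 0.0066 and Mrpl3, a protein near the catalytic centre, at 0.004.

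Among the small-subunit genes, Mrps14 (ENSMUSG00000058267.14) had the smallest p. It had 74.6, 65.1, 71.2 and 65.8 CPM in AM6545 samples and 91.9, 77.1, 92.4, 81.7 and 73.5 CPM in vehicle samples. Among vehicle samples, only vehicle E lay within the AM6545 range, and the log2 fold change was -0.27 (SE 0.10, adjusted p = 0.653). Mrps12, the counterpart of the bacterial protein S12 at the decoding centre, had 39.9, 38.3, 33.0 and 34.6 CPM in AM6545 samples. In vehicle samples it had 49.7, 35.5, 45.9, 45.6 and 42.5 CPM, with vehicle B inside the AM6545 range and the other vehicle samples above it. Its log2 fold change was -0.27 (SE 0.11, adjusted p = 0.653).

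Mrps6, the counterpart of bacterial S6, had 31.0, 24.0, 24.6 and 24.1 CPM in AM6545 samples and 40.9, 23.7, 32.3, 35.0 and 31.8 CPM in vehicle samples. Vehicle B had the lowest value of all, and the log2 fold change was -0.34 (SE 0.14, adjusted p = 0.653). Its exons overlap those of Slc5a3 and Gm49711 on the same strand, so its level is uncertain. Mrps25 and Mrps33, both without a bacterial counterpart, had log2 fold changes of -0.21 and -0.24 (adjusted p = 0.653 for both).

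The largest positive value among the small-subunit genes was that of Mrps27, a pentatricopeptide repeat protein, a kind of RNA-binding protein. It had 39.8, 42.0, 38.5 and 29.8 CPM in AM6545 samples and 28.8, 34.4, 35.5, 35.3 and 35.6 CPM in vehicle samples. Samples A, B and C of the AM6545 group were above all vehicle samples, and AM6545 E was below all but vehicle A. The log2 fold change was 0.14 (SE 0.11, adjusted p = 0.717).

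**Figure D3:**
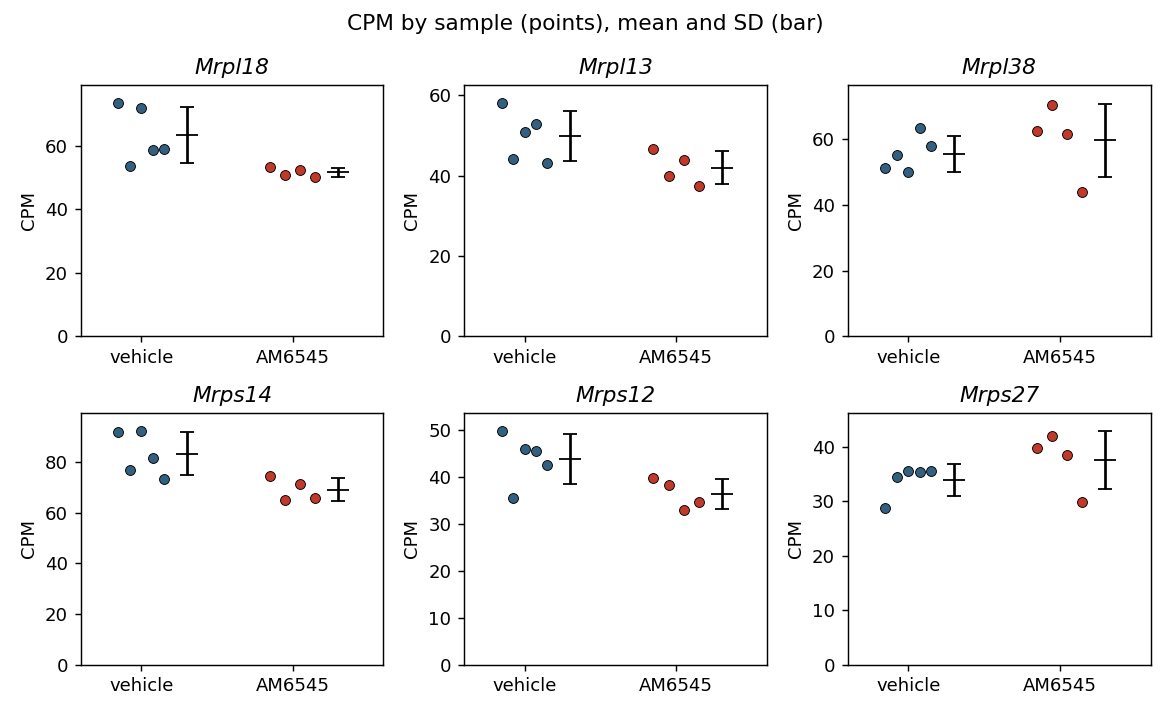
CPM of 6 members by group, with 1 point per sample and the mean and SD beside them. Mrpl18 is the one whose groups do not overlap, and Mrpl38 and Mrps27 have higher means after AM6545 with AM6545 E well below the other treated samples.

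Some symbols do not match the place of the protein. Mrps30 and Mrps18a are built into the large subunit, and their log2 fold changes were 0.06 and -0.06. Mrps36 belongs to the oxoglutarate dehydrogenase complex of the citric acid cycle. It had 30.3, 23.6, 25.8 and 29.4 CPM in AM6545 samples and 39.1, 28.1, 39.3, 32.6 and 30.2 CPM in vehicle samples, a log2 fold change of -0.31 (SE 0.12, adjusted p = 0.653) with vehicle B and E within the AM6545 range. Sorted by place in the ribosome, 46 of 51 large-subunit genes (median -0.14) and 22 of 26 small-subunit genes (median -0.096) had lower values.

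The 3 paralogs of bacterial S18 differed in their values. Mrps18c had 20.6, 17.4, 17.9 and 19.5 CPM in AM6545 samples and 29.8, 18.2, 28.5, 23.6 and 17.9 CPM in vehicle samples, a log2 fold change of -0.32 (SE 0.15, adjusted p = 0.653). Mrps18a was at -0.06 and Mrps18b at 0.01, and the differences between the paralogs were not tested. By descent, 44 of 48 genes with a bacterial counterpart and 24 of 29 without one had lower values, and both medians were -0.13. With sample weights the medians were -0.054 (34 of 48 lower) and -0.042 (21 of 29 lower), with the length trend removed they were -0.073 and -0.06, and without AM6545 E 18 of 29 genes without a counterpart were lower.

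Levels between genes were compared per kilobase of transcript, as the mean over all 9 samples. The length was the median over the gene's annotated transcripts, not over those expressed here, so the order depends on the annotated lengths. Mrps33 was the highest at 123 ± 17.95 CPM per kilobase (SD, n = 9), followed by Mrpl20 at 122 ± 21.9, Mrpl41 at 107 ± 12.8 and Mrpl48 at 98.0 ± 6.96, and each difference between neighbours in this order was smaller than the larger of their 2 SDs. Mrps18a, at 84.0 CPM per kilobase, and Mrps17, at 73.2, came next among the Mrps genes. Mrpl47 (6.13), Mrpl1 (7.59), Mrps25 (7.93) and Mrps35 (8.66) were the 2 lowest of each subunit. Mrps25, with a length of 6073 bases, had a mean of 48.13 CPM before division by length, above the members' median of 40.3 CPM. The median was 33.4 CPM per kilobase for the large and 29.6 for the small subunit.

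Members with shorter transcripts had the more negative values. The 39 members up to the median length of 1051.5 bases had a median log2 fold change of -0.16, with 37 lower, and the 39 longer ones had -0.091, with 32 lower. Across the 78 members the log2 fold change ran with transcript length at a Spearman rho of 0.41, beside 0.24 across 14494 genes. Members share libraries and depth, so this is a description of these samples. Without AM6545 E the longer members were at -0.017, with 22 of 39 lower, and without vehicle C at -0.06. Without vehicle A the shorter members were at -0.10. With the length trend removed, the shorter members were at -0.076 (33 of 39 lower) and the longer ones at -0.071 (30 of 39 lower), and with sample weights they were at -0.076 (30 of 39 lower) and -0.028 (26 of 39 lower). The median member, at 1051.5 bases, was shorter than the median gene tested, at 2254.5 bases.

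**Figure D4:**
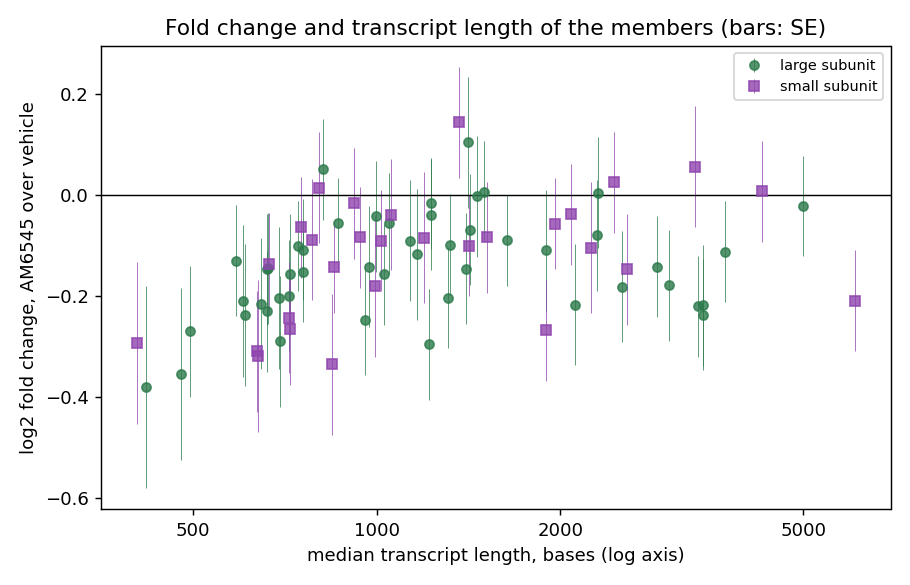
Log2 fold change of each member (AM6545 against vehicle) against transcript length in bases on a log axis. Members of up to 1051.5 bases lie lower (median -0.16) than longer ones (median -0.091), with wide overlap.

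Other genes of mitochondrial gene expression did not share 1 direction. Of 5 mitoribosomal subunits without an Mrp symbol, 3 had lower values (median log2 fold change -0.12): Chchd1 was at -0.29, while the GTP-binding subunit Dap3 was at 0.08. Of 13 translation factors 8 had lower values (median -0.022), and of 24 assembly factors 13 did (median -0.006), with the helicase Dhx30 at 0.33 (adjusted p = 0.653). All 13 mitochondrially encoded protein genes, the products of this ribosome's work, had lower values (median -0.12), with 0 at an unadjusted p under 0.05. Their share of all counts was 5.41% ± 1.08 (SD, n = 4) after AM6545 and 5.81% ± 1.47 (SD, n = 5) after vehicle, a difference within the spread of either group. The mitochondrial ribosomal RNAs were not analysed here.

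The mitochondrial aminoacyl-tRNA synthetases, which load amino acids onto the tRNAs that this ribosome uses, had mostly higher values: 14 of 17, with a median log2 fold change of 0.14. Aars2, the alanine enzyme, had 25.4, 49.7, 24.9 and 23.4 CPM in AM6545 samples and 16.3, 24.2, 22.7, 19.7 and 19.6 CPM in vehicle samples. AM6545 B was far above all others and vehicle B lay within the AM6545 range, with a log2 fold change of 0.59 (SE 0.20, adjusted p = 0.653). Ears2 was at 0.29 (adjusted p = 0.653). The list's median was 0.054 without AM6545 B, 0.077 without vehicle A and 0.088 without AM6545 A, and 5 of 17 were lower without AM6545 A, AM6545 B, vehicle A or vehicle C. Its median transcript length was 2191 bases.

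The mitochondrial genome maintenance and transcription list, with 8 of 13 lower and a median of -0.056, held the smallest p of these lists. Polrmt, the mitochondrial RNA polymerase, had 24.1, 27.6, 19.1 and 20.6 CPM in AM6545 samples and 14.7, 19.1, 15.2, 17.0 and 17.5 CPM in vehicle samples. AM6545 C and vehicle B met at 19.1 CPM, and the log2 fold change was 0.45 (SE 0.12, adjusted p = 0.653). Slirp, which stabilises mitochondrial messenger RNAs, had 15.9, 14.6, 15.5 and 16.9 CPM in AM6545 samples and 26.0, 16.1, 28.0, 21.7 and 17.1 CPM in vehicle samples. Its log2 fold change was -0.47 (SE 0.16, adjusted p = 0.653), with vehicle B within the AM6545 range.

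**Figure D5:**
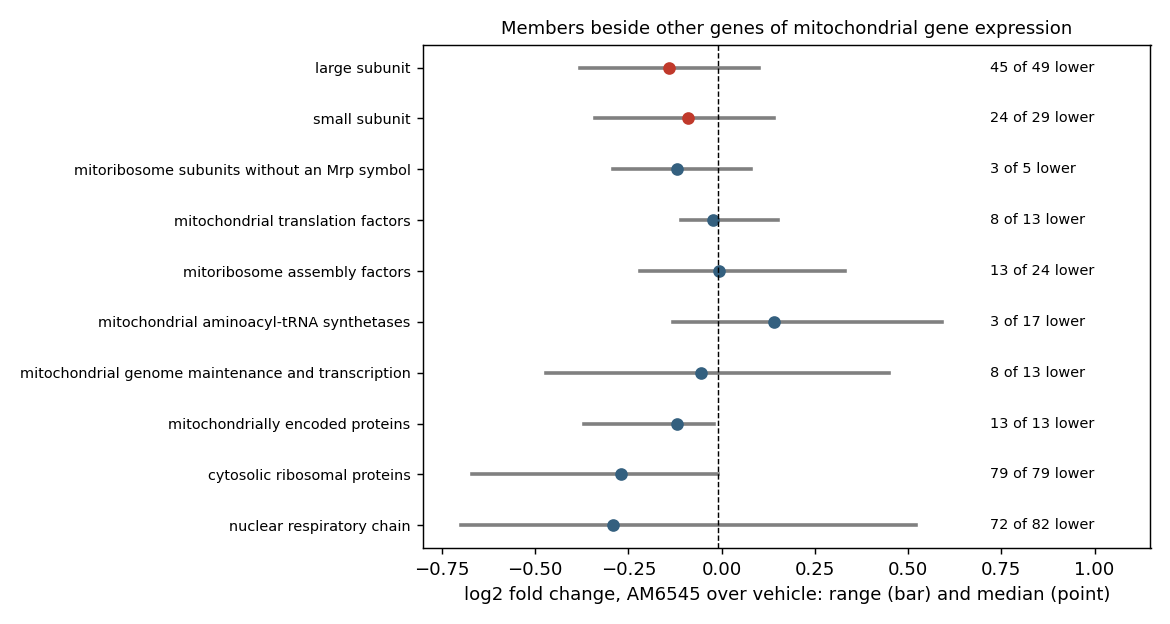
Log2 fold changes by list, with the range as a bar, the median as a point and the number of genes with lower values beside them. The medians of the large and small subunit lie under 0 (-0.14 and -0.091), and that of the tRNA synthetases above 0 (0.14).

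The nuclear genes of the cytosolic ribosome and of the respiratory chain had larger negative medians, -0.27 with 79 of 79 lower and -0.29 with 72 of 82 lower. Vehicle A, C and D stood above all other samples in both lists, as in the mitoribosomal genes. Their mean log2 CPM was 6.16, 5.85 and 5.88 for the cytosolic ribosomal proteins, where vehicle B and E had 5.49 and 5.51, and 6.96, 6.76 and 6.77 for the respiratory subunits, where vehicle B and E had 6.40 and 6.45. AM6545 E was not the lowest sample for either: its mean log2 CPM of 5.52 for the cytosolic ribosomal proteins and 6.44 for the respiratory subunits lay within the range of the other AM6545 samples.

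Promoters of the members are described here by their sequence only. Whether a motif goes with the members' levels across samples was not tested. RefSeq windows (GRCm38.p6) of 300 bases, from 250 before to 50 after the start, were found for 69 of the 78 genes, 75 windows in all. They were searched on both strands for CGCATGCG, a site of the respiratory factor NRF1, for the ETS family core CCGGAAG, and for the YY1 motif AAGATGGC. The last letters of the ETS motif are the first of the YY1 motif, so these can overlap, though no match of one overlapped a match of the other in a member window. The ETS motif was in 34.7% of member windows and 8.86% of all 32851 windows, the YY1 motif in 16.0% and 2.75%, and the NRF1 motif in 9.33% and 1.87%. At least 1 of them was in 50.7% and 12.6%. The 32851 windows belong to 27025 genes, more than the 22255 of the count table, so they include genes not tested here. The shares among tested genes alone were not computed. Member windows were richer in G and C, at a median of 58.7% against 52.7%. Of 31 ETS matches, 28 lay between 100 bases before the start and the end of the window, of 12 YY1 matches, 9 did, and of 8 NRF1 matches, 5 did. A match of letters is not a measured binding site.

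The windows of 4 chosen members, all with an ETS match, are shown 5′ to 3′ on the gene's strand, with motif matches in capitals. Mrpl18 (chr17:12916042-12916341, minus strand) is the gene whose groups did not overlap and has an ETS match far from the start. Mrps12 (chr7:28741772-28742071, minus strand) had lower values and has a YY1 match upstream and an ETS match at the start. Mrps27 (chr13:99344536-99344835, plus strand) had the highest fold change and has an ETS and a YY1 match close to the start. Mrps18b (chr17:35916391-35916690, minus strand) was near 0 and has an NRF1 match upstream and an ETS match past the start. These 4 genes, with lower, higher and near-equal values, do not show how matches go with the values, since all were ones with an ETS match. An ETS match was in 34.7% of all member windows. The windows of Mrps14, Mrps36 and Mrps6, which also had lower values, held none of the motifs.
Mrpl18: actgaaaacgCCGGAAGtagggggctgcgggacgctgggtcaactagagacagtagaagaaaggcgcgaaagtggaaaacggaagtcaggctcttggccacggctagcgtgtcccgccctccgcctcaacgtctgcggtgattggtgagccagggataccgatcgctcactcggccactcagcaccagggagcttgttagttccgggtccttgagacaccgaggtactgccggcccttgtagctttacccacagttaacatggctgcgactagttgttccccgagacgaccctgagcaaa
Mrps12: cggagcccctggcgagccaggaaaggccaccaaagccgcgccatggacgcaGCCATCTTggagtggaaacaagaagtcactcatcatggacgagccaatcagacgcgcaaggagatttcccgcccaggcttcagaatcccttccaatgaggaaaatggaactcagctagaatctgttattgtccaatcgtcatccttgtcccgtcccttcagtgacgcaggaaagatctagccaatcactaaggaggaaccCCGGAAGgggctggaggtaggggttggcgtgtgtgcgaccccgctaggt
Mrps27: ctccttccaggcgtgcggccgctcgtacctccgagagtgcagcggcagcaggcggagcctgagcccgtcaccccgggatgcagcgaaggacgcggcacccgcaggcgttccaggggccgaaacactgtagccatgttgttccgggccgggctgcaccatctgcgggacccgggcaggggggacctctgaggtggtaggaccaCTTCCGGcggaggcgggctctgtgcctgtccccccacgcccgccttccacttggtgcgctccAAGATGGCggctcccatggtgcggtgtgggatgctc
Mrps18b: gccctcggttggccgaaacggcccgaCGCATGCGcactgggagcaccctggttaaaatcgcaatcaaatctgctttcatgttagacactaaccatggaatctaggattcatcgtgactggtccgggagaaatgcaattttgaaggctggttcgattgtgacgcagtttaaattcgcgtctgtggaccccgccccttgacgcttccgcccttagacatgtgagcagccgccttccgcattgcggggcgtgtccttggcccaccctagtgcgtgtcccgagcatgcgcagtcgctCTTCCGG

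Overlapping or similar genes touched part of the set. Exons of 22 members overlap another gene on either strand, and 3 members have a near-identical stretch in another gene of the table. Without all of these, 47 of 55 members had lower values, with a median log2 fold change of -0.12.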

How the data were processed

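The authors deposited 1 table of estimated counts per gene for the 9 samples, and the submitters' processing notes name Salmon 1.3 and DESeq2 1.30, with no role given for either. They name both GRCm39 and mm10, so no gene coordinates are printed, and the strand setting is not given in the sources used here. Symbols were matched by Ensembl identifier without version for 22155 of 22255 genes; the 100 others have none. The members, lists and tests were chosen with earlier results of these data known.

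Estimated counts were rounded to whole numbers. Genes were filtered with filterByExpr, leaving 14512, scaled by TMM and tested with edgeR 4.0.16 (R 4.3.3, quasi-likelihood F-test, AM6545 against vehicle, Benjamini-Hochberg over all genes, threshold 0.05). Standard errors are the absolute log2 fold change over the square root of F. Mean levels used log2 CPM with a prior count of 2. Transcript length was the median over a gene's protein-coding transcripts in GENCODE M21, or over all its transcripts where it had none. Similar genes were found with blastn 2.17.0 (95% identity over 200 bases). The test was checked on simulated data with changes larger than those of the members, so the check does not cover changes of the members' size. Nothing in the labels says that samples are separate animals, so p-values measure only the spread between these samples. Every pair of samples differed by more than counting noise (lowest chi-square over its degrees of freedom 10.03).

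Named genes were, per subunit, the 4 with the smallest p in each direction, the 3 highest and 2 lowest per kilobase, the members whose symbol and place differ, and the Mrps18 paralogs; per companion list, up to 3 with the smallest p. Alternatives were other scalings and filters, DESeq2 1.42.0, limma-voom (limma 3.58.1) with and without weights, a replicate block, each sample left out, and length and GC trends removed (lowess, span 0.3). The unadjusted counts, the split by length, the bacterial classes and the tRNA synthetase list were added to these alternatives after seeing the data.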

Additional observations from a re-analysis of the deposited data

Results flagged for a closer look

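Of 58 groups of sample values over 29 results, 2 held a sample whose gap to the nearest other, divided by the range of the group, was beyond Dixon's 95% critical ratio. Chance alone gives about 1 in 20 such groups. Mrps6 in AM6545 A had 31.0 CPM, where the other AM6545 samples had 24.0 to 24.6 CPM (ratio 0.911, critical ratio 0.829). Mrps27 in vehicle A had 28.8 CPM, where the other vehicle samples had 34.4 to 35.6 CPM (ratio 0.828, critical ratio 0.71).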

How the results depend on the processing

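Under 19 alternatives the medians of both subunits kept their sign, from -0.18 to -0.048 for the large and from -0.13 to -0.037 for the small subunit, both weakest with limma-voom sample weights. Genes with lower values numbered 35 (without AM6545 E) to 47 of 49 and 18 (with weights) to 27 of 29. No member passed the adjusted threshold under any alternative. Over all genes, leaving out each sample in turn gave 0 to 1 genes past it, the 1 without AM6545 A, which was not a mitoribosomal gene. The number of members at an unadjusted p under 0.05 was added to the alternatives after seeing the data. The share of all genes at such a p is given for the main fit only, at 4.18% with lower values. Under the other settings the counts have no such share beside them, so they are not a result about the members. For the large subunit the counts ran from 1 (without AM6545 B or vehicle C) to 14 (without vehicle B), with 2 without AM6545 C or vehicle A and 8 without vehicle E. For the small subunit they ran from 1 (without AM6545 C or vehicle A) to 8 (without vehicle B), with 2 without AM6545 B or vehicle D and 3 without vehicle C. The labels do not say whether the sample letters pair the samples. Correlations of same-letter deviations were -0.0183 for A, 0.0374 for B, 0.336 for C and -0.0212 for E. Samples of different letters were not compared in this way, so these values cannot settle it. Other settings gave 1 large-subunit gene with length and GC trends removed or with sample weights, 2 with RLE size factors or limma-voom and 7 with total counts. They gave 3 small-subunit genes with length and GC trends removed, 2 with the length trend removed and 1 with weights. With the replicate block, where vehicle D had no AM6545 sample of its letter, the medians were -0.13 and -0.059. In that fit 2 large-subunit and 3 small-subunit genes were at an unadjusted p under 0.05. Of 27 named members, 19 kept their sign throughout and the lowest adjusted p was 0.32. The other 8, with values from -0.10 (Mrps35) to 0.06 (Mrps30), changed sign under at least 1 alternative, and the cause of their sign changes was not tested. Mrpl3 was at -0.008 with the length trend removed, -0.0037 with limma-voom, -0.0036 with the replicate block, and -0.0071 with total counts. Mrpl37 was at -0.027 with length and GC trends removed, -0.00064 with weights and -0.0017 with total counts. Mrpl48 was at 0.033 with length and GC trends removed, 0.018 with the length trend removed and 0.012 with weights. Mrps18a was at 0.017 with the length trend removed and 0.0049 with weights, and Mrps35 at 0.013 with weights. With each sample left out, Mrpl3 ran from -0.057 to 0.098, Mrpl37 from -0.057 to 0.079, Mrps18b from -0.047 to 0.069, Mrps30 from -0.016 to 0.14 and Mrps5 from -0.026 to 0.10. Every member had at least 140 counts in each sample.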

Other observations

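The low level of AM6545 E was uneven among the members. The members with the lowest ratio of AM6545 E to their next lowest sample, chosen after their values were seen, were 3 large-subunit genes. Mrpl16 had 20.3 CPM in AM6545 E and 28.5 to 34.2 CPM in the other 8 samples. Mrpl15 had 34.1 CPM in AM6545 E and 43.2 to 53.4 CPM elsewhere, and Mrpl46 had 26.4 CPM against 32.5 to 41.1 CPM. For these genes the other 3 AM6545 samples lay within or close to the vehicle range.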
